A study of Homo sapiens with 9 samples.

Results

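The genes described here are IL11 and 9 further genes of IL6-type cytokine signalling, in MDA-MB-231 cells with and without knockdown of ASAH1, the gene of acid ceramidase. They are 10 of the 26485 genes listed in each deposited table: the ligands IL11, IL6, LIF and CLCF1, the receptor chains IL6ST, IL6R, LIFR and OSMR, the transcription factor STAT3 and its feedback inhibitor SOCS3. IL11 was chosen by its fold change against the control in these same libraries, so its difference from the control is a description with no test. The other 9 genes were taken for their place in the pathway, by a model that knew earlier results of these data, and no threshold on values was applied to them.

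MDA-MB-231, an established line from a human breast cancer of the triple-negative kind, has mesenchymal features. Polyadenylated RNA was sequenced from cells stably expressing a nonspecific (NS) shRNA, ASAH1 shRNA #1 or ASAH1 shRNA #2, with 3 libraries per group and 9 in all, to learn what changes when ASAH1 is lost. The parental line and the culture medium are the same in all groups, every group carries an shRNA, and the hairpins are independent sequences against the same gene. The series calls the libraries biological replicates, but no source used here says that separate infections or clones were made, so p-values measure the spread between these libraries. The 2 comparisons with NS shRNA use the same 3 NS shRNA libraries, so they are not independent of each other.

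Cytokines of the IL6 family are secreted proteins that signal through the shared receptor chain gp130, the product of IL6ST. IL6 and IL11 first bind their own receptor chains, encoded by IL6R and IL11RA, and then bring gp130 molecules together, whereas LIF joins gp130 with the LIF receptor chain of LIFR. CLCF1, cardiotrophin-like cytokine factor 1, acts through CNTFR with gp130 and the LIFR chain, and OSMR pairs with gp130 for oncostatin M. JAK kinases held by these receptors phosphorylate STAT3, which enters the nucleus and switches on its targets, among them SOCS3, whose protein binds gp130 and the kinases and ends the signal. In breast cancer the family is known for growth and survival signals, and IL11 and IL6 for their part in bone metastasis.

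The reads assigned to genes ranged from 30989598 to 34867548 per library with NS shRNA, from 23806003 to 39791698 with shRNA #1 and from 35653318 to 49659106 with shRNA #2. ASAH1 itself had 135 ± 1.47 counts-per-million (CPM, scaled by the TMM method; SD, n = 3) with NS shRNA, 40.0 ± 1.78 with shRNA #1 and 21.8 ± 0.623 with shRNA #2. Against NS shRNA its log2 fold change was -1.76 with shRNA #1 (adjusted p = 9.49e-09) and -2.63 with shRNA #2 (adjusted p = 5.42e-10, both from limma), in the direction the labels give. VIM, CD44, EGFR and AXL, which mark the line, were present in every library, and ESR1 and PGR had at most 3 reads in each, but ERBB2 (61.2 to 98.3 CPM on average in a group) and EPCAM (22.6 to 33.7 CPM), taken as low in this line, were detected. Among markers of other cells, DCN of fibroblasts, CD3E of T lymphocytes and CDH5 of endothelium had at most 3 reads in every library. The summed level of the 5 immune markers ranged from 26.3 to 32.3 CPM with NS shRNA, from 6.41 to 7.55 with shRNA #1 and from 28.8 to 33.5 with shRNA #2, nearly all of it CD14. The 5 fibroblast markers summed to 63.0 to 64.8, 42.7 to 46.6 and 42.8 to 48.0 CPM in the same order, and the 4 endothelial markers to 12.5 to 14.04, 11.7 to 15.4 and 5.77 to 7.24; the part of these genes in the results below was not tested.

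IL11 lies on the minus strand of chromosome 19, from 55364382 to 55370463 of hg38. It had 3.40, 2.61 and 2.38 CPM in the NS shRNA libraries (86 to 108 reads), 63.4, 67.0 and 68.3 CPM with shRNA #1, and 42.8, 37.5 and 42.1 CPM with shRNA #2. Every knockdown library was far above every NS shRNA library, and shRNA #1 was above shRNA #2 without overlap. On the log2(normalized count + 1) scale IL11 was 4.56 higher with shRNA #1 (standard error, SE, 0.12, a 23.7-fold difference) and 3.86 higher with shRNA #2 (SE 0.13, 14.6-fold), values for which it was chosen. Between the hairpins, a contrast that was not used to choose it, IL11 was 0.61 times as high with shRNA #2 as with shRNA #1 (log2 fold change -0.71, adjusted p = 1.64e-05 by the quasi-likelihood test of edgeR). These are bulk libraries, in which a change in the number of expressing cells cannot be told apart from a change in RNA per cell, here or for any gene below.

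**Figure D1:**
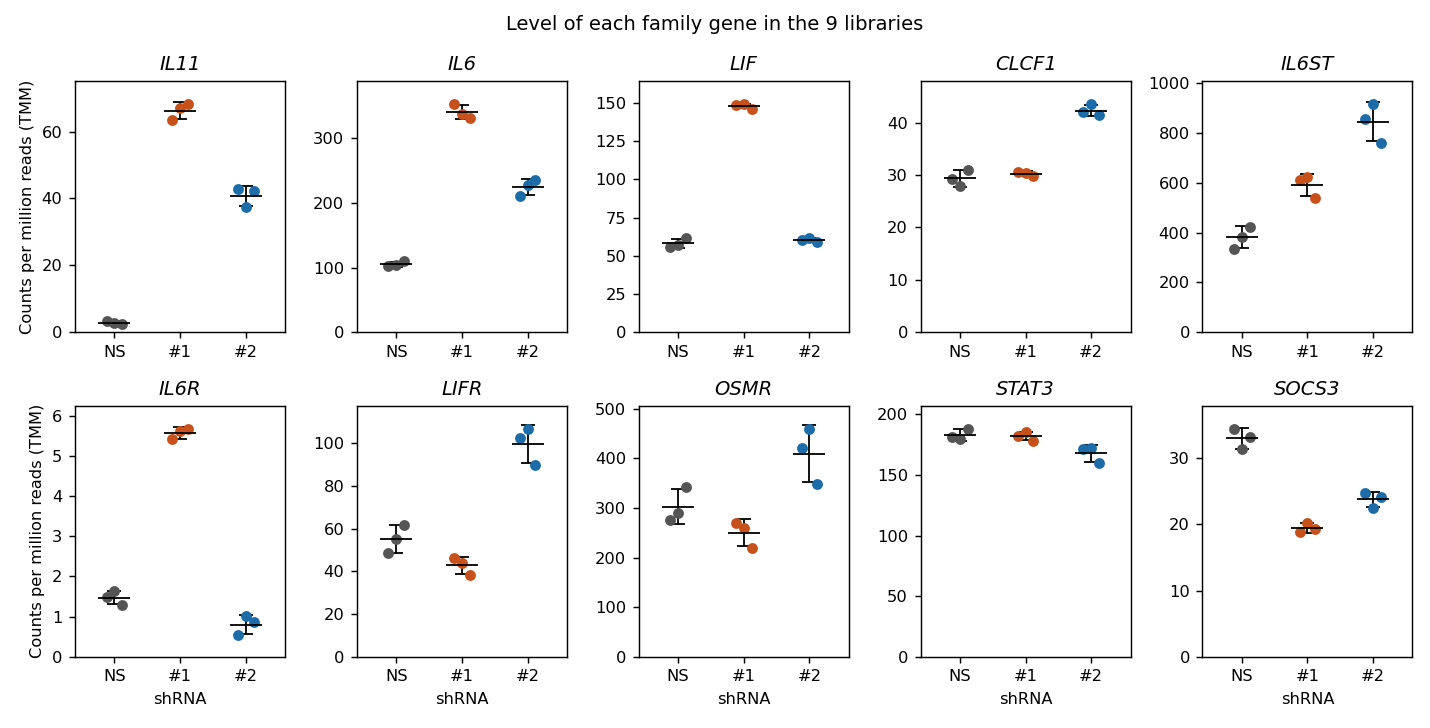
Level of each of the 10 genes in CPM (TMM-scaled) in the 9 libraries, with a point per library, the mean as a bar and the SD of 3 libraries as whiskers; each panel starts at 0 and has its own scale. IL11 rises from at most 3.40 with NS shRNA to at least 37.5 with either hairpin, whereas LIF is higher with shRNA #1 alone and STAT3 stays between 160.0 and 188.2 in all 9 libraries.

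The sequence before a RefSeq transcript start is shown for IL11 and IL6, the 2 ligands that were higher with both hairpins. Both are RefSeq promoter sequences of GRCh38.p14, 5′ to 3′ on the strand of the gene, with the searched motif in capitals. The window of IL11 is chr19:55370464-55370613, the 150 bases directly before its start, on the minus strand. That of IL6 is chr7:22727050-22727146 on the plus strand, from 150 to 54 bases before the transcript start that RefSeq gives. This window lies inside the IL6 gene as GENCODE draws it, which begins further upstream, and the bases nearer to the RefSeq start lie in an exon of another annotated IL6 transcript and are left out.
IL11: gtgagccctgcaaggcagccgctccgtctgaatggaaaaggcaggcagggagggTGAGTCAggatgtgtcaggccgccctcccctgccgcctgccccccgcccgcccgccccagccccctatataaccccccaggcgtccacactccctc
IL6: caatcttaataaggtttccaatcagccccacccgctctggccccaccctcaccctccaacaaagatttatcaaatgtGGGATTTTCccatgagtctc
The capitals in IL11 mark a match to the AP-1 motif TGANTCA, 96 to 90 bases before the start, and those in IL6 a match to the κB-type motif GGGANTTTC, 73 to 65 bases before its RefSeq start. Of the 35116 promoter windows of 250 bases in the RefSeq table, 6.57% held TGANTCA and 1.12% held GGGANTTTC on either strand. The other letters searched were TGACGTCA (cAMP response element, in 1.65% of windows), TTCNNNGAA (STAT, 6.57%) and TGATGNAA (C/EBP-ATF type, 3.14%), and none of these motifs shares a position with another in the windows shown. A window was found for 8 of the 10 genes (11 windows) and not for LIF and CLCF1. The remaining matches were 2 of the STAT motif, 1 in each of 2 windows of LIFR. The windows follow RefSeq starts, which can differ from the gene starts of GENCODE. Neither window of SOCS3 covers the bases directly before its GENCODE start at 78360077. Of the 250 bases searched, 150 in IL6R, 154 in OSMR and 168 in 1 SOCS3 window lie in annotated exons. A missing match therefore holds for these windows only. A match says only that these letters are present.

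Against NS shRNA the 9 genes other than IL11 did not move one way. With shRNA #1, 4 of them rose (IL6, LIF, IL6ST and IL6R), 3 fell (LIFR, OSMR and SOCS3) and 2 did not pass (CLCF1 and STAT3), where 32.8% of the 14341 genes tested were called higher and 33.3% lower by limma at an adjusted p below 0.05. With shRNA #2, 5 rose (IL6, CLCF1, IL6ST, LIFR and OSMR), 2 fell (IL6R and SOCS3) and 2 did not pass (LIF and STAT3), against 33.5% called higher and 33.4% called lower of 14250 genes. The median log2 fold change of the 9 was 0.04 with shRNA #1 and 0.43 with shRNA #2, beside 0.00 and 0.01 over all genes tested. About as many of all genes were called in each direction, so these counts are no result about the family, and the genes are described 1 by 1.

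**Figure D2:**
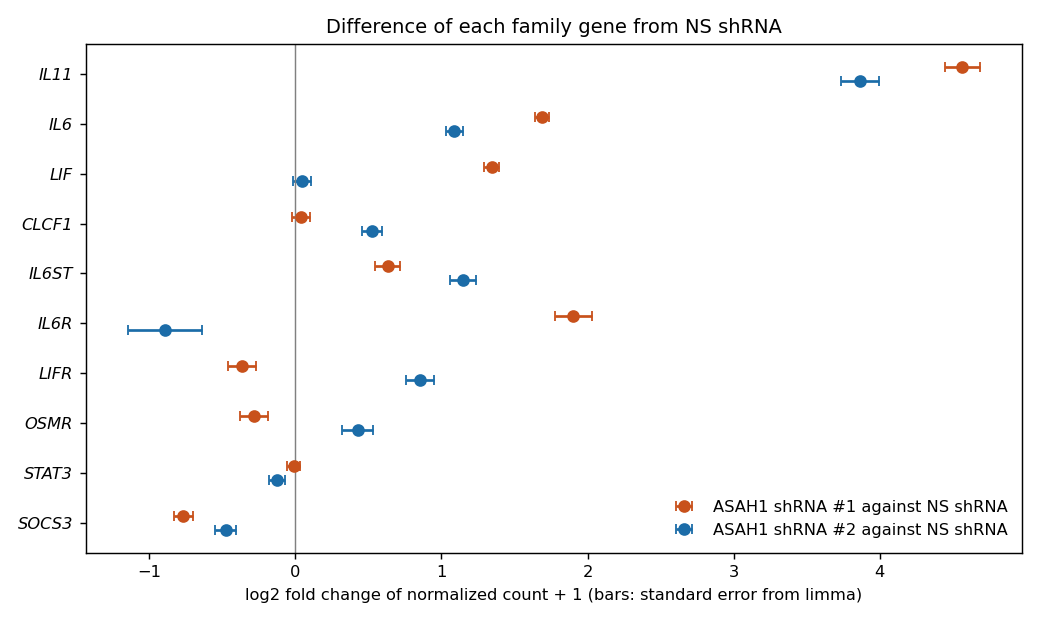
Log2 fold change against NS shRNA of each of the 10 genes, on the log2(normalized count + 1) scale, with shRNA #1 in orange, shRNA #2 in blue and whiskers of 1 standard error from limma. IL11 stands at 4.56 and 3.86, IL6 at 1.69 and 1.09, and IL6R, LIFR and OSMR have the opposite sign with the 2 hairpins.

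Among the other ligands, IL6 rose with both hairpins, LIF with shRNA #1 and CLCF1 with shRNA #2. IL6 (chromosome 7, 22725884 to 22732002, plus strand) had 103.1, 103.3 and 109.9 CPM with NS shRNA, 353.6, 337.2 and 331.8 with shRNA #1 and 211.4, 227.7 and 235.9 with shRNA #2. The 3 groups did not overlap, and both hairpin groups stood above NS shRNA with shRNA #1 the highest. Its log2 fold change was 1.69 with shRNA #1 (SE 0.05, 3.22-fold, adjusted p = 1.16e-08 from limma). The same difference with shRNA #2 was 1.09 (SE 0.06, 2.13-fold, adjusted p = 1.45e-07 from limma). IL6 was therefore 0.65 times as high with shRNA #2 as with shRNA #1 (log2 fold change -0.61, adjusted p = 1.63e-06 from edgeR), a ratio close to that of IL11. IL6 overlaps STEAP1B on the opposite strand, and the counting used the strand.

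LIF, leukaemia inhibitory factor (chromosome 22, 30240453 to 30246759, minus strand), had 55.8, 57.2 and 61.6 CPM with NS shRNA, 148.4, 149.4 and 146.3 with shRNA #1 and 60.2, 61.7 and 58.7 with shRNA #2. The shRNA #1 libraries lay above all 6 others, and the shRNA #2 libraries overlapped NS shRNA. LIF rose with shRNA #1 by a log2 fold change of 1.34 (SE 0.05, adjusted p = 6.06e-08 from limma). The difference with shRNA #2 was 0.05 (95% interval -0.09 to 0.18, adjusted p = 0.533 from limma). The hairpins differed from each other, with LIF lower in shRNA #2 by a log2 fold change of -1.31 (adjusted p = 3.71e-09 from edgeR).

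CLCF1 (chromosome 11, 67364168 to 67374177, minus strand) had 29.3, 27.9 and 31.0 CPM with NS shRNA, 30.7, 30.4 and 29.8 with shRNA #1 and 42.0, 43.6 and 41.4 with shRNA #2. Here the pattern of LIF was turned round: the shRNA #1 libraries lay within the NS shRNA range and the shRNA #2 libraries above it. CLCF1 rose with shRNA #2 (log2 fold change 0.52, SE 0.07, adjusted p = 4.95e-05 from limma). With shRNA #1 its difference was 0.04 (95% interval -0.10 to 0.18, adjusted p = 0.583 from limma), and between the hairpins 0.47 (adjusted p = 1.90e-05 from edgeR). CLCF1 shares exon sequence with an overlapping GENCODE gene on its own strand that the deposited tables do not list, so its reads could in part belong to that transcript.

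Of the receptor chains among the members, only IL6ST moved the same way with both hairpins. IL6ST, the gene of gp130 (chromosome 5, 55935095 to 55995022, minus strand), had 335.8, 383.6 and 424.3 CPM with NS shRNA, 610.3, 623.3 and 539.4 with shRNA #1 and 856.6, 917.6 and 761.8 with shRNA #2. All groups were apart, in the order NS shRNA, shRNA #1, shRNA #2, which is not the order of the ligands IL11 and IL6. IL6ST rose with shRNA #1 by 0.63 on the log2 scale (SE 0.09, adjusted p = 0.000150 from limma). With shRNA #2 it rose by 1.15 (SE 0.09, adjusted p = 1.73e-06 from limma), and it was 0.50 higher with shRNA #2 than with shRNA #1 (adjusted p = 0.000447 from edgeR).

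LIFR (chromosome 5, 38474668 to 38608354, minus strand) had 48.6, 55.1 and 61.5 CPM with NS shRNA, 46.0, 43.9 and 38.5 with shRNA #1 and 102.4, 106.8 and 89.8 with shRNA #2. The shRNA #2 libraries were well above the rest, and the shRNA #1 libraries just below the lowest NS shRNA library. LIFR fell with shRNA #1 (log2 fold change -0.37, SE 0.10, adjusted p = 0.00768 from limma) and rose with shRNA #2 (0.85, SE 0.09, adjusted p = 1.74e-05 from limma). The hairpins differed by 1.21 (adjusted p = 9.58e-07 from edgeR). LIFR-AS1 overlaps it on the opposite strand.

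OSMR, the oncostatin M receptor chain (chromosome 5, 38845858 to 38945596, plus strand), had 275.6, 290.3 and 342.1 CPM with NS shRNA, 269.9, 260.0 and 218.8 with shRNA #1 and 420.4, 459.9 and 347.7 with shRNA #2. Its shRNA #1 libraries lay below the NS shRNA range by a narrow margin, and its lowest shRNA #2 library was close to the highest NS shRNA library. OSMR was higher with shRNA #2 (log2 fold change 0.43, SE 0.11, adjusted p = 0.00438 from limma) and higher with shRNA #2 than with shRNA #1 (0.70, adjusted p = 0.000206 from edgeR). The fall with shRNA #1 was small, -0.28 (SE 0.10, adjusted p = 0.0267 from limma). It no longer passed when NS shRNA replicate 3 was left out (-0.19, adjusted p = 0.0593) or shRNA #1 replicate 3 (-0.19, adjusted p = 0.0706), both from limma. OSMR overlaps RICTOR on the opposite strand.

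For IL6ST, LIFR and OSMR alike, replicate 3 was the highest library of the NS shRNA group and the lowest library of both hairpin groups. The same held for LIF, CLCF1 and STAT3, and outside the family for genes such as EGFR and JAK1, so this order is not particular to the receptor genes. Other genes, such as CEBPB, CEBPD, TIMP1 and BIRC5, had the reverse order. Their replicate 3 was the lowest library with NS shRNA and the highest with each hairpin. The part of this spread in the results was not tested beyond leaving out each library. Doing so ended the call of OSMR with shRNA #1 and, as given below, that of STAT3 between the hairpins. It ended no call of IL6ST, LIFR, LIF or CLCF1.

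IL6R, the receptor chain that gives cells a response to IL6 itself (chromosome 1, 154405193 to 154469450, plus strand), was the scarcest member. It had 1.48, 1.63 and 1.30 CPM with NS shRNA (47 to 55 reads), 5.41, 5.63 and 5.68 with shRNA #1 (135 to 231 reads) and 0.54, 1.00 and 0.87 with shRNA #2 (18 to 40 reads). The groups did not overlap, with shRNA #1 high and shRNA #2 low. IL6R rose with shRNA #1 (log2 fold change 1.90, SE 0.13, adjusted p = 1.60e-06 from limma) and fell with shRNA #2 (-0.89, SE 0.25, adjusted p = 0.00964 from limma). The hairpins differed by -2.79 (adjusted p = 2.11e-07 from edgeR), more than for any other member. The few reads behind the shRNA #2 value make it the least precise of the 10 genes, as its standard error shows.

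STAT3 (chromosome 17, 42313324 to 42388540, minus strand), through which the family signals, hardly moved in level. It had 181.0, 179.2 and 188.2 CPM with NS shRNA, 182.4, 185.5 and 178.3 with shRNA #1 and 171.3, 172.3 and 160.0 with shRNA #2. The shRNA #1 libraries overlapped NS shRNA, and the shRNA #2 libraries were lower than all 6 others. Its log2 fold change was -0.01 with shRNA #1 (95% interval -0.11 to 0.09, adjusted p = 0.847 from limma) and -0.13 with shRNA #2 (95% interval -0.25 to -0.01, adjusted p = 0.0574 from limma). The second value passed with upper quartile rescaling (-0.17, adjusted p = 0.0161) and in 1 limma fit of all 9 libraries (-0.12, adjusted p = 0.0288), both by limma. Between the hairpins STAT3 differed by -0.13 (adjusted p = 0.0283 from edgeR). That call was lost without shRNA #1 replicate 1 (-0.12, adjusted p = 0.0727), shRNA #1 replicate 2 (-0.12, adjusted p = 0.0901) or shRNA #2 replicate 3 (-0.09, adjusted p = 0.122), all from edgeR. RNA levels do not show how much of the STAT3 protein is phosphorylated, which was not measured in these libraries.

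SOCS3, the feedback inhibitor (chromosome 17, 78356778 to 78360077, minus strand), was the member that fell with both hairpins. It had 34.5, 31.4 and 33.2 CPM with NS shRNA, 18.8, 20.3 and 19.3 with shRNA #1 and 24.7, 22.6 and 24.1 with shRNA #2. No group overlapped another, with NS shRNA highest and shRNA #1 lowest. The log2 fold change was -0.77 with shRNA #1 (SE 0.06, adjusted p = 5.85e-06 from limma) and -0.48 with shRNA #2 (SE 0.07, adjusted p = 0.000156 from limma). SOCS3 was 0.28 higher with shRNA #2 than with shRNA #1 (adjusted p = 0.00205 from edgeR). The hairpin group with the most IL11 and IL6 thus had the least SOCS3.

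Between the hairpins all 10 genes passed, 5 higher with shRNA #2 (CLCF1, IL6ST, LIFR, OSMR and SOCS3) and 5 lower (IL11, IL6, LIF, IL6R and STAT3), where 31.4% of 14381 genes tested by edgeR were called higher and 32.5% lower. With upper quartile normalization these shares were 26% and 38.1%, and all 10 genes kept their direction and their call. IL11, IL6 and LIF were lower with shRNA #2, as was IL6R, while the receptor chains IL6ST, LIFR and OSMR were higher. ASAH1 was also lower with shRNA #2 than with shRNA #1 (log2 fold change -0.89, adjusted p = 6.84e-08 from edgeR).

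Levels can be set side by side between genes only per length, here as CPM per kb of annotated exon, the union over all GENCODE transcripts of the gene. This union can be longer than the transcript present in the cells, which lowers the value, and the transcripts in use were not measured. For IL6 the union is 4321 bases and begins upstream of the RefSeq start. The order of genes below therefore depends on these lengths. With NS shRNA, OSMR had 42.2 ± 4.88, IL6ST 31.6 ± 3.68 and IL6 24.4 ± 0.900 CPM per kb (SD, n = 3). STAT3 (16.3 ± 0.426), CLCF1 (16.0 ± 0.851) and LIF (15.04 ± 0.775) followed and lay within about their spread of each other, and SOCS3 had 12.1 ± 0.579. LIFR had 4.53 ± 0.533, IL11 1.04 ± 0.200, its receptor gene IL11RA 0.936 ± 0.0464 and IL6R 0.210 ± 0.0237, with IL11 and IL11RA not apart beyond their spread. IL11 was thus the least abundant ligand of the 4 before knockdown. With shRNA #1 IL11 reached 24.7 ± 0.946 CPM per kb, above CLCF1 at 16.5 ± 0.252 and STAT3 at 16.2 ± 0.322 and below LIF at 38.2 ± 0.404, and IL6 led all 10 genes at 78.9 ± 2.63. With shRNA #2 IL11 had 15.2 ± 1.08 CPM per kb, beside LIF at 15.6 ± 0.381 and STAT3 at 14.98 ± 0.612, and the highest means were IL6ST at 70.1 ± 6.51, OSMR at 57.1 ± 7.93 and IL6 at 52.1 ± 2.89, neighbours that were not apart beyond their summed SDs. The receptor chains particular to the ligands stayed low: IL11RA had 0.524 ± 0.0610 and 0.532 ± 0.105 CPM per kb with shRNA #1 and #2, and IL6R 0.797 ± 0.0205 and 0.115 ± 0.0340.

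**Figure D3:**
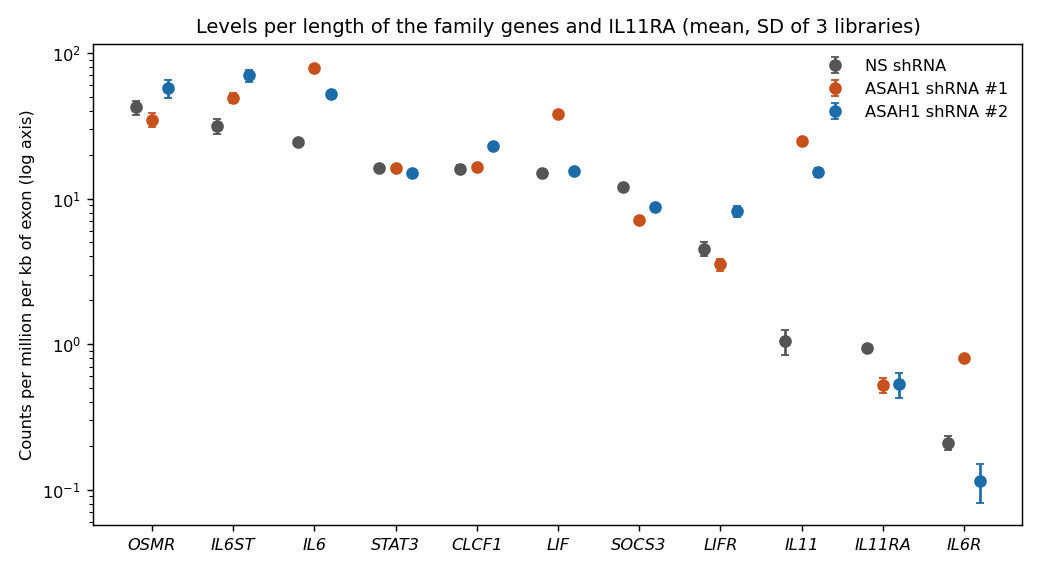
Mean level per kb of annotated exon of the 10 genes and IL11RA, in CPM per kb on a log axis, in NS shRNA (grey), ASAH1 shRNA #1 (orange) and ASAH1 shRNA #2 (blue), with the SD of 3 libraries as whiskers. IL11 moves from 1.04 with NS shRNA to 24.7 and 15.2, while IL11RA stays at or below 0.936 and IL6R at or below 0.797.

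The rest of the pathway was read from a list of 49 genes, 43 of which had enough reads to be tested in each comparison. OSM, CNTF, IL27, CNTFR and LBP were among those not tested, none of which exceeded 3 reads in any library, so CNTFR, the chain that binds CNTF, was barely detected. Of the 43, 15 rose, 19 fell and 9 did not pass with shRNA #1, and with shRNA #2 the counts were again 15, 19 and 9. The share that rose lay near that of all genes given above, and the share that fell was larger, with no test of the difference. The list was chosen with earlier results of these data known, so these shares are a description only. The median log2 fold changes were 0.00 and -0.06. 12 genes rose with both hairpins, 15 fell with both and 3 (STAT4, PTPN11 and BCL3) changed in opposite directions. Of the 14075 genes tested in both comparisons, which share the NS shRNA libraries, 20% rose with both hairpins, 20.5% fell with both and 7.96% changed in opposite directions. Between the hairpins 13 were higher with shRNA #2, 16 lower and 14 did not pass. The lists by role below are small, and their counts are given beside the shares of all genes with no test.

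Of the 2 other ligands and 2 other receptors that could be tested, none rose with either hairpin. Over all genes 32.8% rose with shRNA #1 and 33.5% with shRNA #2, and 20.5% of those tested in both comparisons fell with both. With so few genes these counts are no result about ligands or receptors. EBI3, the subunit that joins IL27, fell by 0.89 with shRNA #1 and by 1.87 with shRNA #2 on the log2 scale. CTF1, cardiotrophin 1, fell by 0.98 with shRNA #2, and its value with shRNA #1 was 0.03 (95% interval -0.23 to 0.28). IL11RA, the receptor chain that binds IL11, had 4.94, 5.16 and 4.67 CPM with NS shRNA, 2.93, 2.39 and 2.96 with shRNA #1 and 3.39, 2.30 and 2.69 with shRNA #2. All 6 knockdown libraries were below all NS shRNA libraries for IL11RA, in contrast to its ligand. IL11RA fell by 0.84 (SE 0.13, adjusted p = 0.000271) and by 0.83 (SE 0.15, adjusted p = 0.000690, both from limma), and IL27RA by 0.47 and 1.11.

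Both proteases that can release receptors from the cell surface changed: ADAM17 rose with both hairpins and ADAM10 fell with both, by 1.29 with shRNA #1 and by 0.22 with shRNA #2. Of the kinases JAK1 rose with both, TYK2 fell with both and JAK2 did not pass in either (0.00, 95% interval -0.27 to 0.26, and 0.22, 95% interval -0.03 to 0.46). Beside these small lists, 20% of all genes tested in both comparisons rose with both hairpins and 20.5% fell with both. Among the 6 other STAT genes 1 rose and 4 fell with shRNA #1, and 5 fell with shRNA #2, with STAT2 and STAT5A among those lower with both, where 33.3% and 33.4% of all genes fell. STAT4, of which there were under 4 CPM, was at 0.46 with shRNA #1 (adjusted p = 0.0212) and -1.38 with shRNA #2 (adjusted p = 0.000717, both from limma). The STAT4 call with shRNA #1 was lost without shRNA #1 replicate 1 (0.41, adjusted p = 0.0689), shRNA #1 replicate 3 (0.41, adjusted p = 0.0674) or NS shRNA replicate 3 (0.39, adjusted p = 0.0630), all from limma.

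The brakes on the pathway were 9 genes of SOCS proteins, PIAS proteins and phosphatases. With shRNA #1, 2 rose, 4 fell and 3 did not pass, and with shRNA #2 the counts were 3, 3 and 3. About 1 gene in 3 of all genes tested was called in each direction, so these counts lie near the background. SOCS2, an inhibitor of growth hormone and related signals, went the other way from SOCS3: it had 3.24 to 3.497 CPM with NS shRNA, 15.4 to 17.5 with shRNA #1 and 15.5 to 16.9 with shRNA #2. SOCS2 rose by 2.26 (SE 0.09, adjusted p = 6.18e-08) and by 2.25 (SE 0.09, adjusted p = 2.73e-08, both from limma). SOCS1, PIAS3 and PTPN6 fell with both hairpins, PTPN6 (the phosphatase SHP-1) by 1.21 and 1.18, whereas PTPN2 rose with both.

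Of 20 genes known as STAT3 targets, 19 were tested, and 10 rose, 6 fell and 3 did not pass with shRNA #1, while with shRNA #2 the counts were 10, 5 and 4. Over all genes 32.8% rose and 33.3% fell with shRNA #1, and 33.5% and 33.4% with shRNA #2. Their median log2 fold changes were 0.20 and 0.28, above those of all genes. 8 of the 19 rose with both hairpins, beside 20% of all genes tested in both comparisons. The share of the targets was larger, with no test of the difference. The list was chosen with earlier results of these data known, so its share and medians are no result about STAT3 targets. The 8 were BCL6, BCL2L1, CEBPB, FOS, IRF1, MCL1, MYC and VEGFA. VEGFA, the angiogenic growth factor, rose by 1.38 with shRNA #1 and by 2.37 with shRNA #2, from 276 to 313 CPM with NS shRNA to 749 to 779 and 1489 to 1553. MYC rose by 1.40 and 0.32, IRF1 by 0.45 and 1.19 and FOS by 1.283 and 0.51. The FOS call with shRNA #2 was lost without NS shRNA replicate 3 (0.35, adjusted p = 0.0800) or without shRNA #2 replicate 1 (0.43, adjusted p = 0.0857), both from limma. BIRC5, CEBPD, SERPINA3 and TIMP1 fell with both, and of these the acute-phase inhibitor SERPINA3 fell by 1.87 and 0.94 and CEBPD, a transcription factor of the acute-phase response, by 1.16 and 1.00. Many of these genes also answer to other pathways, and the list does not separate those inputs.

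**Figure D4:**
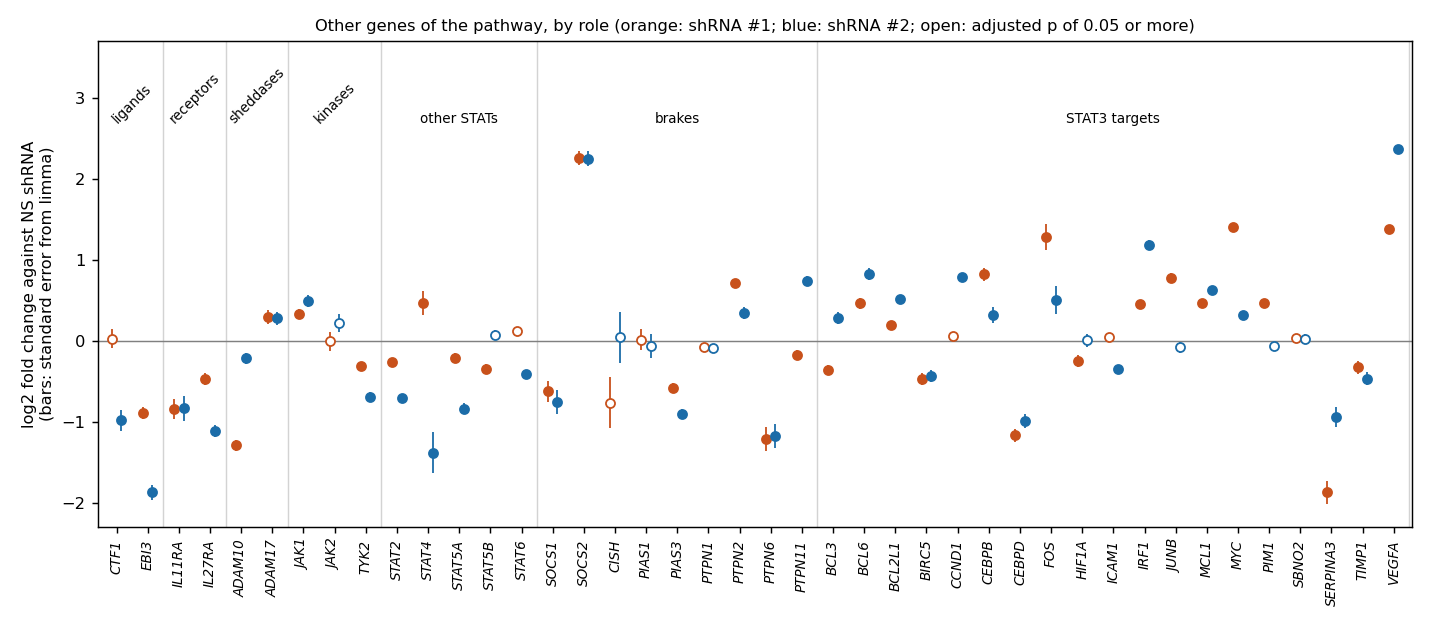
Log2 fold change against NS shRNA of tested genes of the pathway outside the family, on the log2(normalized count + 1) scale and ordered by role, for shRNA #1 (orange) and shRNA #2 (blue), with whiskers of 1 standard error from limma; filled points have an adjusted p below 0.05. Both tested receptor genes fall with both hairpins, as do 20.5% of all genes tested in both comparisons. SOCS2 at 2.26 and 2.25 and VEGFA at 2.37 with shRNA #2 stand highest.

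The genes whose profile was closest to that of IL11 were found over the 9 libraries among 14381 genes, by the root mean square (RMS) difference of log2(CPM + 1) after each gene was centred on its NS shRNA mean. They were GADD45A (RMS 0.729), a growth arrest and stress gene, CHAC1 (0.864), a glutathione-degrading enzyme, ATF3 (0.894), a stress transcription factor, CTH (0.900), an enzyme of cysteine synthesis, and IL24 (0.924), a cytokine of the IL10 family. On this scale IL11 lay 4.16 above NS shRNA with shRNA #1 and 3.47 with shRNA #2. GADD45A lay 3.06 and 2.86 above NS shRNA, CHAC1 3.04 and 2.47, ATF3 3.36 and 2.15 and CTH 2.69 and 2.99. IL24 had the largest difference with shRNA #1, 5.14, and 2.22 with shRNA #2. CTH was the one of the 5 with the higher value in shRNA #2. None of the other 9 members was among these 5 genes, and the order is a description of 9 libraries that fall into 3 groups. The RMS difference depends on the size of the rise. A member with a smaller rise, such as IL6, is therefore not close to IL11 by it, whatever its ratio between the hairpins.

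**Figure D5:**
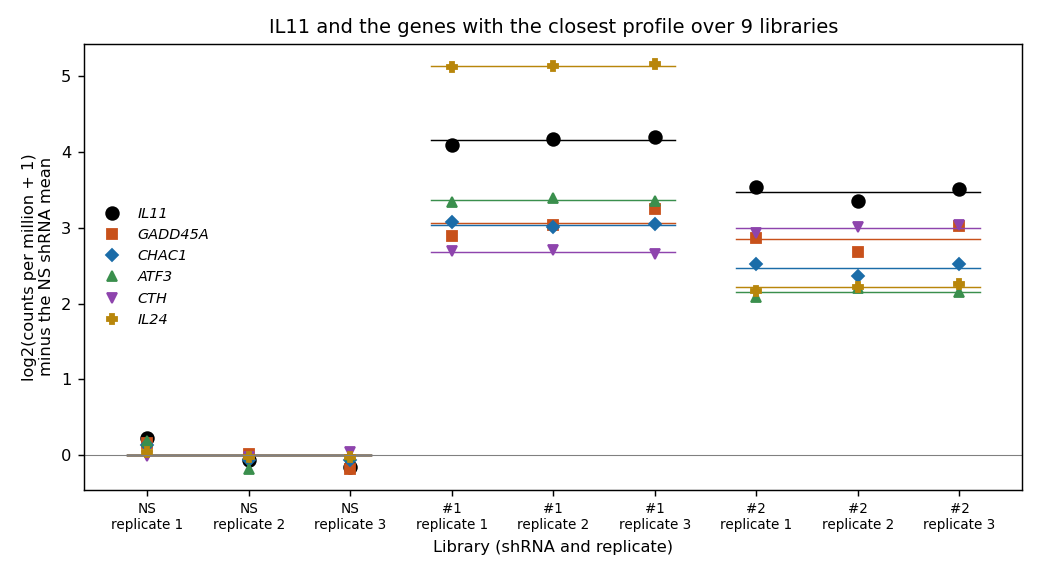
Log2(CPM + 1) minus the NS shRNA mean of the gene, for IL11 and the 5 genes with the closest profile, in each of the 9 libraries, with a point per library and a line at the mean of each group. All 6 genes lie near 0 with NS shRNA and at 2.15 or more on average with each hairpin.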

How the data were processed

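RNA from 9 MDA-MB-231 libraries was sequenced after oligo-dT selection with a strand-specific kit per the labels, although the series design text names ribosomal RNA depletion. The authors used Trimmomatic 0.36 for trimming and STAR 2.7.1a for alignment to hg38, counted reads on UCSC genes with HTSeq in reverse-strand mode and ran DESeq2 1.28, and another paragraph of the methods names RSEM, TMM and edgeR instead. The deposited signal is a read count divided by a library size factor, in 1 table per hairpin with the NS shRNA libraries; the authors' mean signal, log2 fold changes, Wald score and p-values in the same tables were not used. Every per-sample value came out a whole number of reads within 0.01 (100% in each library), so the read counts were recovered, and the NS shRNA reads had 0 differences between the tables. 28 gene symbols that a spreadsheet had turned into dates were read from the other table.

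Each hairpin was compared with NS shRNA in its own table by limma 3.58.1 in R 4.3.3, with an intensity trend on log2(normalized count + 1), two-sided, for genes averaging 10 or more, with Benjamini-Hochberg adjustment over all genes at 0.05. Fold changes of genes with few reads are understated on this scale. For hairpin #2 against hairpin #1, edgeR 4.0.16 (quasi-likelihood, TMM) was run on the recovered reads of 9 libraries with a mean of at least 10 reads. CPM values come from the same TMM scaling, and their precision is limited by the reads given with them. Alternatives were edgeR and DESeq2 1.42.0 on the reads, pseudocounts of 0.1 and 5, other filters and scalings, no trend, 1 fit of 9 libraries, a replicate block and leaving out each library. The fits were tested on simulated data. Members of the marker and pathway lists that are counted but not named are not reported here. The members and lists were chosen with earlier results of these data known. Named outside the family are ASAH1, the ligands and receptors of the pathway, pathway genes called in both comparisons with NS shRNA with a log2 fold change of at least 1 in size in either, and the 5 genes closest to IL11; genes named only within a count have no values of their own, and JAK2 and the markers were added to complete their lists. Positions and exon lengths are from GENCODE v44 on hg38; the authors' UCSC annotation was not used here. Promoter sequences are from RefSeq, GRCh38.p14. Summaries and figures were made in Python 3.11.15 (pandas 2.3.3, matplotlib 3.10.9).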

Additional observations from a re-analysis of the deposited data

Results flagged for a closer look

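The difference between the hairpins, taken as shRNA #2 against shRNA #1, passed the adjusted threshold of edgeR's quasi-likelihood test for the 10 members, for ASAH1 and for 10 of the pathway genes given with values in the report, so their effects against NS shRNA differ between the hairpins. Among the ligands the log2 fold change was -0.71 for IL11, -0.61 for IL6, -1.31 for LIF and 0.47 for CLCF1. Among the receptor chains it was 0.50 for IL6ST, -2.79 for IL6R, 1.21 for LIFR and 0.70 for OSMR. It was -0.13 for STAT3 and 0.28 for SOCS3. Of the other genes of the pathway, ADAM10 differed by 1.06, IRF1 by 0.72, SERPINA3 by 0.92 and VEGFA by 0.97, all higher with shRNA #2. CTF1 differed by -1.02, EBI3 by -0.996, FOS by -0.79, IL27RA by -0.65, MYC by -1.10 and STAT4 by -1.83, all lower with shRNA #2. The targeted gene ASAH1 differed by -0.89. Further genes that the report names only within a count or as a marker also passed, and over all genes in this comparison 31.4% were higher and 32.5% lower, so a difference between the hairpins was common. How far the depth of knockdown, the sequence of a hairpin or the particular cell populations take part was not tested.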

How the results depend on the processing

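Of 188 counts of members or pathway genes recomputed under the alternatives, 187 stayed within 1.5 times the reported count. The exception was the number of members other than IL11 lower with shRNA #2, which was 1 with a mean of at least 50, where IL6R is not tested. Of 469 values of the 10 members, 453 were counted as unchanged. For IL11 against NS shRNA this meant a value less than the residual SD from the reported one. For all others it meant the same direction and the same side of the threshold. The IL11 difference moved to 4.16 and 3.47 in 1 limma fit of all 9 libraries, where the added 1 stands beside CPM and not normalized counts, and to 4.71 for shRNA #1 without NS shRNA replicate 1. OSMR with shRNA #1 also missed the threshold in limma without the trend (adjusted p = 0.0822), and STAT3 between the hairpins in edgeR on all genes with a read (adjusted p = 0.0866); the causes were not tested. Differences near 0 changed sign: leaving out 1 library gave -0.028 to 0.014 for STAT3 and -0.080 to 0.147 for CTF1 with shRNA #1, and between the hairpins -0.142 to 0.127 for IL11RA, -0.073 to 0.124 for PTPN6 and -0.060 to 0.029 for SOCS2. Upper quartile normalization gave -0.065 for IL11RA and -0.058 for PTPN6 between the hairpins, and a mean of at least 50 reads gave -0.0033 for IL11RA.

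With the replicate number as a replicate block, 4120 genes were higher and 4117 lower with shRNA #1, 4246 and 4280 with shRNA #2, and 4199 and 4391 between the hairpins. Under the replicate block IL11RA between the hairpins was -0.00076, OSMR with shRNA #1 had an adjusted p of 0.0781 from limma and STAT3 between the hairpins one of 0.0658 from edgeR, and no other call of a member changed. The numbers did not pair the libraries: deviations of NS shRNA libraries correlated at -0.14 to -0.59 with hairpin libraries of the same number, those of the hairpins at 0.03, 0.18 and 0.47 with each other, and 0 of 9 libraries correlated best with its own number in both other groups. Depth limits IL6R most, with 18 to 40 reads with shRNA #2.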
